A study of Medicago sativa with 9 samples.

Results

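Long non-coding RNAs (lncRNAs, longer transcripts without predicted coding potential) of alfalfa leaves were compared between a high and a low dose of selenite, an inorganic form of selenium. The high Se group had been sprayed at 500 mg/L and the low Se group at 100 mg/L, both as field-grown plants of Medicago sativa L. cv. Kangsai that were 20 cm tall at assignment. Each group received 3 sprays, 1 every 7 days, and gave 3 libraries of rRNA-depleted leaf RNA. The control group, labelled CK, was sprayed on the same schedule with a liquid that the labels do not name; it enters the estimate of the spread and no dose difference. Nothing in the labels ties a library to its own plant or pool, and p-values therefore cover only library-to-library variation, technical or not. In bulk leaf RNA, fewer cells of a type and less RNA per cell cannot be told apart. Of the 64684 transcripts in the deposited table, 42823 (66.2%) averaged 0.5 FPKM or more across the 6 selenite libraries and were kept. FPKM is the number of fragments per kilobase of transcript, scaled to the size of the library. Those just inside the limit, at a mean of 0.5 to 0.55 FPKM, differed between the doses by 0.20 on average on the log2(FPKM + 0.1) scale (2257 transcripts), and those just outside, at 0.45 to 0.5 FPKM, by 0.24 (2372 transcripts). All transcripts are predicted lncRNAs under assembly names, so the leaf label could not be checked against protein-coding markers.

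Plants take selenite up largely through phosphate transporters and reduce it to selenide, which enters sulfur amino acids. Selenium is toxic to many plants at high doses, and alfalfa is studied as a forage that can carry it to livestock. Plant lncRNAs are classed by their place relative to protein-coding genes. Intergenic ones lie between genes, intronic ones inside an intron, antisense ones on the strand opposite a gene, sense-overlapping ones across exons of a gene on its own strand, and junction-sharing ones use a splice junction of an annotated gene. Antisense and intronic RNAs can act on their host gene in cis in some plants, such as COOLAIR and COLDAIR at FLC in Arabidopsis, while most have no known role. The functions of the alfalfa host genes are not annotated in the sources used here.

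More members were listed above 0 in the high Se libraries, and the mean log2(FPKM + 0.1), which weights listed zeros, was higher there. The summed signal was not: members added up to 351093, 290136 and 357186 FPKM in high Se 1, 2 and 3, against 359546, 335868 and 341594 FPKM in low Se 1, 2 and 3, which overlapped. Members held 12.8% ± 1.1 of the aligned bases in high Se and 12.9% ± 0.38 in low Se (SD, n = 3 each). Both measures are weighted to the most abundant transcripts and say little about the typical member. MSTRG.91972.1 alone had 52472 to 74700 FPKM in high Se libraries and 59905 to 93638 FPKM in low Se libraries. The median log2 FPKM of values above 0 was 0.87 ± 0.08 in high Se and 0.94 ± 0.14 in low Se. Between 28608 and 30517 members were above 0 in the high Se libraries, against 24837 to 28562 in the low Se libraries. High Se 1, 2 and 3 had a mean log2(FPKM + 0.1) of -0.42, -0.32 and -0.32, against -0.57, -0.43 and -0.90 in low Se 1, 2 and 3. The groups did not overlap, but the nearest libraries, high Se 1 and low Se 2, lay close together, and low Se 3 was far below the rest. The mean difference was 0.28, with library means of -0.35 ± 0.06 in high Se and -0.63 ± 0.24 in low Se (SD, n = 3 each). With 3 libraries against 3, an exact two-sided permutation test cannot go below p = 0.10, so no such test is reported for library means. The difference was 0.16 without low Se 3 and 0.21 after median-of-ratios rescaling. Quantile normalization brings the libraries to a common distribution, except at tied values such as listed zeros. It thus removes most of such a shift by design, and left 0.05. The authors' values implied 2.07 to 2.97 gigabases of aligned sequence per high Se library and 1.68 to 2.65 per low Se library. The part of sequencing depth in the shift was not tested.

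A higher mean in high Se was found for 56.1% of the members, with a median difference of 0.25. The spread was wide beside this: the median transcript had an SD of 1.95 between libraries of a group on the same log2 scale. Of the members, 10726 (25.0%) were above 0 in all 6 libraries. Among these the mean difference was 0.09, with library means of 1.34, 1.31 and 1.36 in high Se against 1.31, 1.36 and 1.06 in low Se, so that the groups overlapped and low Se 3 alone stood below. Another 15569 members were above 0 in more high Se than low Se libraries, and 9723 in more low Se than high Se libraries. At the extreme, 963 of the 42823 members were above 0 in all 3 high Se libraries and listed at 0 in all 3 low Se libraries. The opposite pattern was shown by 392. Such members passed the filter only through the group where they were above 0. They are part of the members whose groups did not overlap, 7.48% higher and 4.07% lower in high Se. A listing of 0 can be a failed estimate, so it is not read as absence. Of the 963, 108 were above 0 in every control library and 316 listed at 0 in all of them. Of the 392, the same counts were 31 and 145.

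The test across all members called few transcripts. By limma, with a Benjamini-Hochberg adjusted p below 0.05, 7 of 42823 transcripts (0.0163%) differed, of which 6 were higher in high Se (0.0140%) and 1 lower (0.00234%). At an unadjusted limma p under 0.05 there were 2534 higher (5.92%) and 1283 lower (3.00%). Together these were 3817 transcripts (8.91%). The share of higher ones among them, 66.4%, was 62.5% after median-of-ratios rescaling, 56.0% after quantile normalization and 55.5% without low Se 3. In 3203 members (7.48%) every high Se library lay above every low Se library, and in 1743 (4.07%) every one lay below. Each of these orders is 1 of the 20 ways to split the libraries 3 against 3, so it also occurs without a dose difference. The adjusted count depended on single libraries. Without high Se 1, high Se 2 or high Se 3 it was 0 in limma, with 3659, 3155 and 3273 transcripts at an unadjusted p under 0.05. Leaving out low Se 1, low Se 2 or low Se 3 gave 19, 2 and 3 calls, and leaving out control 1 gave 17.

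All 6 transcripts called higher in high Se than in low Se were listed at 0 in each low Se library. Values tied at 0 have an SD of 0, which lowers the pooled spread in the fit, so these p-values can be too small. With a pseudocount of 0.01, 1 of the 7 calls remained. The intergenic MSTRG.131912.1 lies on chromosome 7.3 (44910876 to 44911134, minus strand) and is a single exon of 259 bases. It had 31.8, 21.3 and 9.48 FPKM in high Se and 0 in each low Se library (limma adjusted p = 0.006). It stayed below the threshold in 6 of the 9 fits with 1 library left out and in 10 of 11 other settings. A shorter spliced form of its locus, MSTRG.131912.2, was listed at 2.77, 2.82 and 0 FPKM in high Se and at 0 in low Se and control. Antisense transcripts, 2.27% of all members, were 2 of the 6, too few to compare with the 0.0140% called higher over all members. MSTRG.40373.1, opposite MS.gene89082 on chromosome 2.4 (2426888 to 2444540), had 19.95, 22.1 and 26.6 FPKM in high Se, the narrowest range of the 6 in proportion to its level (limma adjusted p = 0.0405). MSTRG.112200.1, opposite MS.gene05222 on chromosome 6.2, had 11.4, 5.32 and 6.84 FPKM (limma adjusted p = 0.0405). The intergenic MSTRG.4787.1, on scaffold 51888, had 11.6, 7.58 and 5.73 FPKM in high Se (limma adjusted p = 0.0405). MSTRG.86040.1, intergenic on chromosome 4.4, had 12.7, 34.3 and 83.5 FPKM (limma adjusted p = 0.0405), and MSTRG.10405.1, intergenic on chromosome 1.1, had 20.6, 18.8 and 43.2 FPKM (limma adjusted p = 0.0478). The last pair were listed at 0 in every control library too, and the other 4 were above 0 in every control library. Control held 7.45, 5.62 and 8.19 FPKM of MSTRG.131912.1, 0.522, 4.16 and 19.1 FPKM of MSTRG.40373.1, 6.73, 3.06 and 8.63 FPKM of MSTRG.4787.1 and 4.23, 6.42 and 12.8 FPKM of MSTRG.112200.1. The single transcript called lower in high Se than in low Se, the intergenic MSTRG.130637.1 of 1127 bases, also lies on chromosome 7.3 (23915702 to 23916828). High Se libraries held 0.117, 0 and 0 FPKM of it, against 39.1, 46.2 and 46.4 FPKM in low Se and 5.998, 0.174 and 0 FPKM in control (limma adjusted p = 0.0478). Beside MSTRG.131912.1, each of the other 6 calls remained in 3 or 4 of the 9 fits with 1 library left out. These were mostly fits without a control library, which enters no difference. Of all 7 calls, 7, 6 and 7 remained without control 1, 2 and 3. Without low Se 1, 2 and 3 there remained 4, 1 and 1, and without high Se 1, 2 or 3 there remained 0.

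The dose difference varied little over the low and middle expression levels and was larger among the abundant transcripts, by a margin that depended on single libraries. Members were placed in 5 bands by their mean FPKM over the 6 libraries. In the bands of 0.5 to 1 FPKM (17994 transcripts), 1 to 2 (14269), 2 to 5 (7538) and 5 to 10 (1758), the mean log2 differences were 0.25, 0.29, 0.30 and 0.29. In the band of 10 FPKM or more (1264 transcripts) it was 0.50. High Se 1, 2 and 3 averaged 4.16, 4.30 and 4.32 there on the log2(FPKM + 0.1) scale, against 3.95, 3.76 and 3.59 in low Se 1, 2 and 3. These groups did not overlap, as they did not between 2 and 10 FPKM, and leaving out any 1 selenite library gave differences of 0.35 (without high Se 3) to 0.60 (without low Se 1). In the lower bands the same step gave 0.10 to 0.34, 0.17 to 0.45, 0.18 to 0.46 and 0.24 to 0.49, lowest without low Se 3 or high Se 2 and highest without low Se 2. The mean log2 difference of transcripts at 10 or more FPKM was above that of the other bands in each of these 6 fits, by least without low Se 2, at 0.57 beside 0.49 for 5 to 10 FPKM. Of the abundant transcripts, 66.0% were higher in high Se, beside 54.8% in the lowest band and 56.1% over all members.

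**Figure D1:**
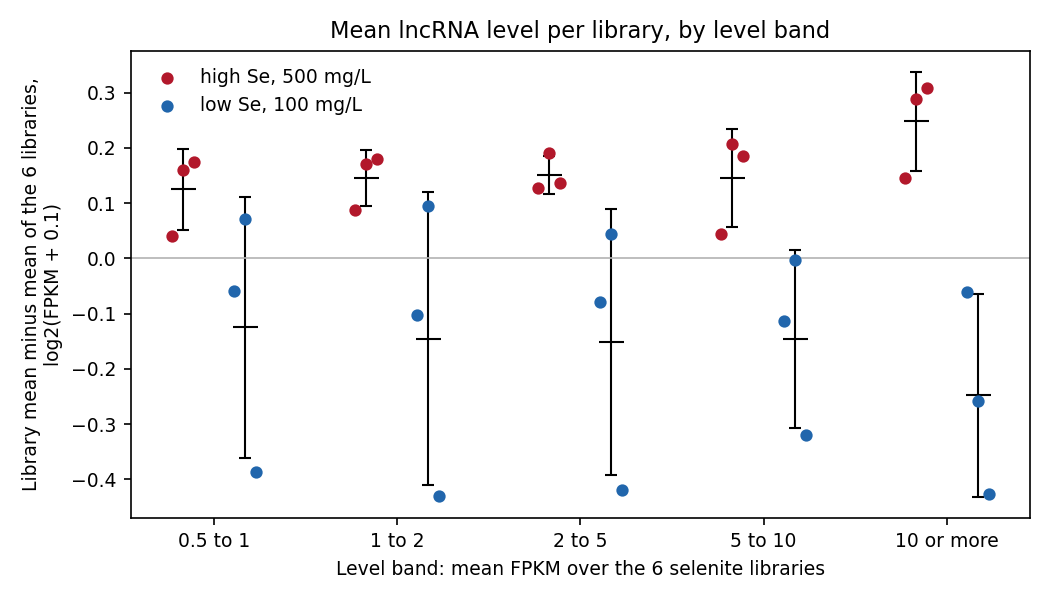
Mean log2(FPKM + 0.1) of each selenite library, as the deviation from the mean of the 6 libraries, in 5 bands of mean FPKM. Points are libraries 1, 2 and 3 from left to right, and bars the mean ± SD (n = 3). In the band of 10 FPKM or more the high Se libraries lie above the low Se ones by the widest margin, and low Se 3 is the lowest library in every band.

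The abundant band also differed from the others when zeros were set aside. Among transcripts above 0 in all 6 libraries, the mean difference was 0.02, 0.06, 0.08 and 0.11 in the first 4 bands and 0.34 in the band of 10 FPKM or more, where 983 transcripts remained and 66.5% were higher in high Se. Quantile normalization left -0.004 in the lowest band and 0.31 in the highest. With the bands drawn from the 3 control libraries instead, which take no part in the difference, the highest band gave 0.40 and the 4 lower ones 0.25 to 0.30. Within the highest band the difference was 0.49 at 10 to 20 FPKM (670 transcripts), 0.57 at 20 to 50 (340) and 0.55 at 50 to 100 (114). Above these, 113 transcripts with a median of 171.1 FPKM had 0.46, and the 27 most abundant, with a median of 2808 FPKM, had -0.27. The groups overlapped in both of these. Abundant transcripts on chromosomes (933) and on unplaced scaffolds (331) had differences of 0.51 and 0.47, with the groups overlapping on scaffolds. Precision rose with level: the median SD between libraries of a group was 2.04 in the lowest band and 0.77 in the highest.

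The most abundant transcripts themselves did not pass the test. MSTRG.105411.1, an intergenic transcript on chromosome 5.4 (71329312 to 71329638), was the one of the 5 highest whose groups did not overlap. Its values were 17327, 12109 and 12565 FPKM in high Se libraries, against 17716, 24658 and 23382 FPKM in low Se, with a log2 difference of -0.65 ± 0.38 (SE) and a limma adjusted p of 0.57. High Se 1 and low Se 1 were close together. MSTRG.91972.1, antisense to MS.gene038092 on chromosome 5.1, had 74700, 61393 and 52472 FPKM in high Se libraries, against 59905, 78303 and 93638 FPKM in low Se. Its second form, MSTRG.91972.2, had 28357, 23569 and 32449 FPKM against 29919, 22313 and 23941. Both forms overlapped between the doses. MSTRG.100870.1, which overlaps MS.gene70851 on chromosome 5.3, had 30724, 31564 and 39123 FPKM in high Se libraries, against 34250, 38393 and 40662 FPKM in low Se. MSTRG.21071.1, intergenic on chromosome 1.3, was listed at 0 in high Se 2 and low Se 1 and at 6008 FPKM or more in the other 4 selenite libraries.

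Antisense transcripts showed the largest class difference. Their 970 members averaged 0.54 ± 0.09 in high Se and -0.04 ± 0.41 in low Se on the log2(FPKM + 0.1) scale (SD over libraries, n = 3 each), a mean difference of 0.58 with a median of 0.45. The other classes followed with 0.43 for the sense-overlapping (1313 members), 0.29 for the intergenic (28575), 0.29 for the junction-sharing (1954) and 0.20 for the intronic class (10011). Antisense and sense-overlapping transcripts were also the most abundant, with a median of 1.92 and 1.79 FPKM beside 1.12 for intergenic ones. Each class was therefore set beside all other members in the same level band, weighted to the class's own bands.

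After this matching, antisense transcripts lay 0.09 ± 0.06 above the other classes in high Se and at -0.19 ± 0.22 relative to them in low Se, a difference of 0.29. By library the values were 0.08, 0.16 and 0.04 in high Se against -0.29, 0.06 and -0.34 in low Se. Low Se 2 overlapped the high Se libraries, so the class difference was not beyond the spread between libraries. It was 0.19 without low Se 3, 0.24 when the number of exons was matched too and 0.06 among transcripts above 0 in all 6 libraries. Detection, not matched for level, differed as well: 78.6% of antisense values were above 0 in high Se and 67.9% in low Se. The gap was similar for sense-overlapping transcripts, at 81.4% and 72%, beside 67.9% and 60.4% for intergenic ones. The band of 2 to 5 FPKM had the widest gap, with means of 0.94 to 1.02 in high Se against 0.20, 0.67 and -0.17 in low Se (281 transcripts). At an unadjusted limma p under 0.05, 84 antisense transcripts were higher in high Se (8.66%) and 20 lower (2.06%), beside 6.91% and 3.51% for other classes at the same levels. Of the lower ones, the 2 with the smallest p were MSTRG.55808.1 and MSTRG.102218.1, opposite MS.gene039695 and MS.gene010357. Both were listed at 0 in each high Se library, with 5.03, 2.59 and 6.88 FPKM and with 3.72, 2.54 and 1.81 FPKM in low Se, and limma adjusted p of 0.383 and 0.386.

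**Figure D2:**
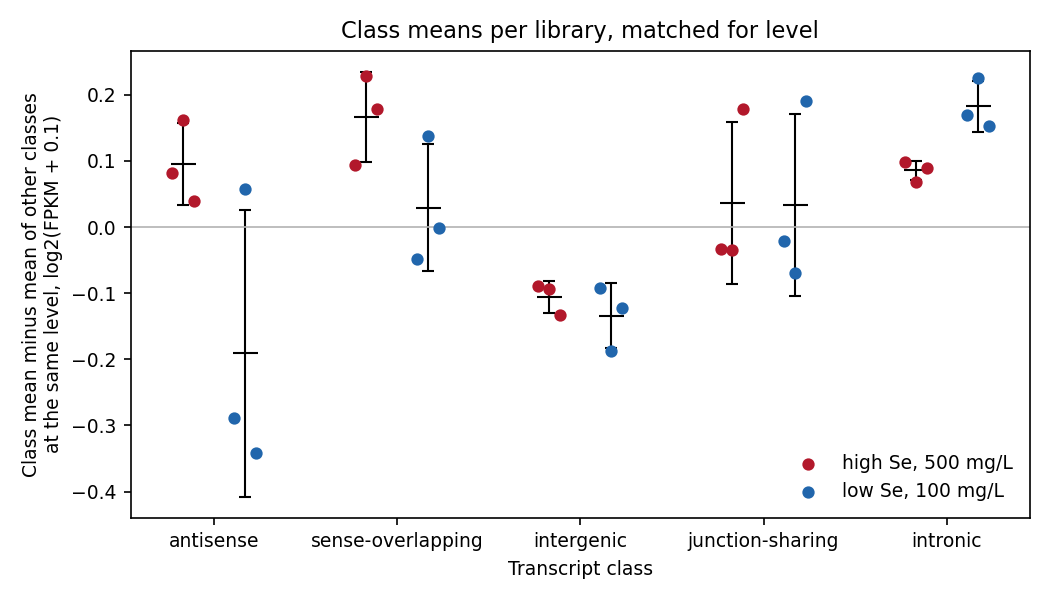
Mean log2(FPKM + 0.1) of each class minus the mean of the other classes at the same level, for each selenite library. Points are libraries and bars the mean ± SD (n = 3). Intronic transcripts are the class whose high Se libraries (0.07 to 0.10) and low Se libraries (0.15 to 0.23) do not overlap, while low Se 2 puts the antisense groups into overlap.

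Intronic transcripts went the other way relative to the rest. They were 0.09 ± 0.01 above the other classes of their level in high Se and 0.18 ± 0.04 above them in low Se (SD, n = 3 each), a difference of -0.10. The library values, 0.10, 0.07 and 0.09 in high Se against 0.17, 0.23 and 0.15 in low Se, did not overlap. This separation was not tested, and an exact two-sided permutation p could not go below 0.10. Matched for level, the libraries also separated on 3 of the 32 chromosomes. Their own level was still a little higher in high Se, at -0.41 ± 0.05 against -0.62 ± 0.27 in low Se, with overlapping libraries. The relative difference lay between -0.11 and -0.07 with any 1 selenite library left out and was -0.10, -0.11 and -0.07 after rescaling, after quantile normalization and among transcripts above 0 in all 6 libraries. Among the last, the SD was 0.05, beside 0.03 over all members. The relative difference was -0.047 with a pseudocount of 1, -0.15 with one of 0.01 and -0.20 above a mean of 2 FPKM. Among zero-free intronic transcripts, 51.1% were higher in high Se, beside 54.6% of all zero-free members. Fewer of them reached an unadjusted limma p under 0.05, with 398 higher (3.98%) and 237 lower (2.37%), beside 6.32% and 3.16% for other classes of the same level. None of the 10011 passed the adjusted threshold, which 0.0163% of all members passed, and a count of 0 is near that share.

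The intronic transcripts with the smallest p were as follows in each direction. MSTRG.141770.1, a single exon of 277 bases within MS.gene63147 (chromosome 8.1, 43729954 to 43730230), had 3.11, 24.3 and 18.6 FPKM in high Se and was listed at 0 in low Se (limma adjusted p = 0.0963). MSTRG.154135.2, within MS.gene035567 on chromosome 8.4, had 4.85, 8.23 and 2.26 FPKM in high Se and was also listed at 0 in low Se (limma adjusted p = 0.217). In the other direction, the smallest p was that of MSTRG.115113.1, described below with the zero-free transcripts. Next came MSTRG.152519.1, within MS.gene88506 on chromosome 8.3, which was listed at 0 in high Se and in control. It had 12.6, 5.65 and 4.20 FPKM in low Se (limma adjusted p = 0.274).

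Sense-overlapping transcripts stood 0.17 ± 0.07 above the other classes of their level in high Se and 0.03 ± 0.10 above them in low Se, a difference of 0.14 with overlapping libraries. That value was 0.001 among transcripts above 0 in all 6 libraries. MSTRG.157824.1, which overlaps MS.gene066953 on chromosome 8.4, had 11.6, 20.7 and 16.6 FPKM in high Se and was listed at 0 in low Se (limma adjusted p = 0.0963). The lower ones with the smallest p were MSTRG.136627.1 and MSTRG.62482.1, overlapping MS.gene055020 and MS.gene65966. MSTRG.62482.1 had 0, 0.18 and 0 FPKM in high Se libraries, against 9.55, 9.46 and 4.91 FPKM in low Se (limma adjusted p = 0.292). MSTRG.136627.1 had 0.276, 0.476 and 0 FPKM against 5.71, 11.0 and 22.3 FPKM (limma adjusted p = 0.0912). Intergenic and junction-sharing transcripts differed from the other classes of their level by 0.03 and 0.003, both within the spread between libraries. Of the junction-sharing class, MSTRG.10145.1 of MS.gene006292 came nearest to the threshold, with 4.58, 3.76 and 6.98 FPKM in high Se and 0 in low Se (limma adjusted p = 0.0856). On the lower side, MSTRG.86530.5 and MSTRG.134787.1 were listed at 0 in each high Se library and had 8.16, 10.1 and 2.501 FPKM and 14.5, 0.687 and 18.7 FPKM in low Se (limma adjusted p = 0.345 and 0.36).

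**Figure D3:**
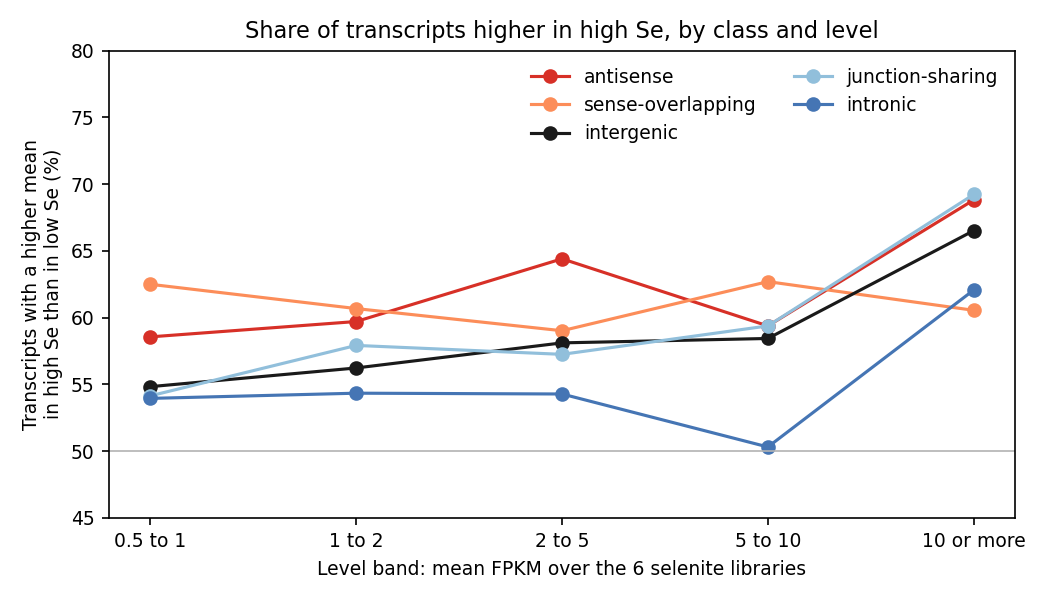
Share of transcripts with a higher mean log2(FPKM + 0.1) in high Se than in low Se, in percent, by class and band of mean FPKM. Intronic transcripts stay near 54% up to 5 FPKM and at 50.3% between 5 and 10 FPKM, below the other classes in each of the first 4 bands, and all 5 classes are above 60% at 10 FPKM or more.

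Differences by exon number lay within the spread between libraries once level was matched. Single-exon transcripts (32595) had a mean log2 difference of 0.26, those of 2 exons (7761) 0.37, of 3 exons (1736) 0.34 and of 4 or more exons (731) 0.19. Matched for level, these became -0.08, 0.10, 0.05 and -0.10, and the libraries of the 2 doses overlapped in each. With 1 selenite library left out they ranged from -0.17 (without high Se 1) to -0.05 (without low Se 1), from 0.07 (without low Se 1) to 0.16 (without high Se 1), from -0.02 (without high Se 3) to 0.18 (without high Se 1) and from -0.16 (without high Se 3) to -0.02 (without high Se 1). Single-exon transcripts made up 76.1% of the members. High Se libraries were spread widely: relative to other members of their level, 3-exon transcripts stood at -0.19, -0.04 and 0.17 in high Se 1, 2 and 3, against -0.14, -0.03 and -0.04 in low Se. Exon number and class overlap, since 924 of the 970 antisense transcripts were spliced and 9574 of the 10011 intronic ones were not. Spliced antisense transcripts alone had a matched difference of 0.31, with libraries that did not overlap, although high Se 3 (0.04) and low Se 2 (0.01) lay close together. Spliced intronic transcripts (437) had a matched difference of 0.06 with overlapping libraries, beside -0.10 for single-exon ones, whose libraries did not overlap. Without matching, transcripts with a strand (14773) and without (28050) differed by 0.32 and 0.26 between the doses. In the shortest, middle and longest of 3 length classes the unmatched difference was 0.28, 0.29 and 0.24. Matched for level, the strand values became 0.037 and -0.055 and the length values -0.009, 0.013 and -0.061, with overlapping libraries in each.

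Over all members, the mean difference had the same sign on every chromosome. The table names 32 chromosomes, numbered 1.1 to 8.4, which are read here as 8 sets of 4 homologues, since alfalfa is an autotetraploid. Near-identical copies on homologues can share reads, and transcripts without a strand cannot be told from an overlapping antisense one, so single values of such transcripts are uncertain. All 32 had a mean difference above 0, from 0.16 on chromosome 4.3 to 0.38 on chromosome 6.4, and the share of higher transcripts lay between 52.8% and 59.0%. On most chromosomes, 4.3 among them, the library means of the doses overlapped. Matched for level, the libraries did not overlap on 3 of the 32 chromosomes. These were 4.3, 3.3 and 5.4, with matched differences of -0.13, 0.08 and -0.08, which were not tested. Among transcripts above 0 in all 6 libraries, chromosomes 2.2, 3.2, 3.4 and 5.1 had differences of -0.04, -0.04, -0.02 and -0.05. The other chromosomes stayed above 0 there. The SD of the 32 means was 0.061, beside an average standard error of 0.053 from the spread among the transcripts of a chromosome. Set 6 had the highest mean, 0.35, with all 4 of its chromosomes between 0.32 and 0.38. Relative to other members of the same level it stood at -0.02 ± 0.10 in high Se and -0.10 ± 0.07 in low Se, which overlapped. Among transcripts above 0 in all 6 libraries the sign of this relative difference of set 6 was reversed, at -0.02. The widest set was 4, whose chromosomes 4.1 to 4.4 had 0.35, 0.27, 0.16 and 0.25. Unplaced scaffolds held 2199 members, of higher level (median 1.58 FPKM), with a difference of 0.43. Matched for level they had an excess of 0.18, 0.14 and 0.11 in high Se against 0.24, -0.17 and -0.01 in low Se, which overlapped, and without low Se 2 the difference was -0.01.

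**Figure D4:**
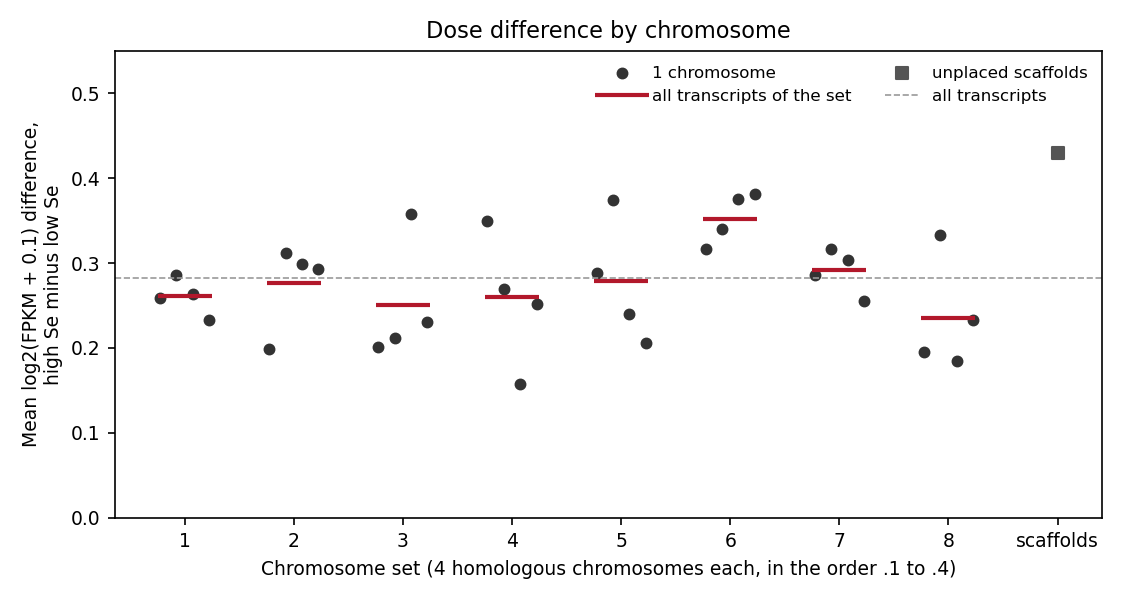
Mean log2(FPKM + 0.1) difference, high Se minus low Se, for each of the 32 chromosomes (points, the 4 homologues of a set side by side), for each set (red bars) and for unplaced scaffolds (square). The dashed line is the mean over all members, 0.28. All points are above 0. The 4 chromosomes of a set lie within 0.053 (set 1) to 0.19 (set 4) of each other.

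Close neighbours had more similar differences than distant ones. Across pairs of adjacent loci, Pearson's r of the log2 difference was 0.37 under 1 kb apart (4403 pairs), 0.23 at 1 to 10 kb (8055 pairs), 0.05 at 10 to 100 kb (17238 pairs) and -0.004 at 100 kb or more (8847 pairs). Intronic neighbours within 1 host gene had r = 0.26 (1972 pairs) and forms of 1 locus r = 0.25 (1686 pairs). These pairs share libraries and, for forms of 1 locus, reads, so the values are descriptions.

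Transcripts above 0 in all 6 selenite libraries allow a fold change. Of these 10726, 877 (8.18%) had every high Se library above every low Se library, while 624 (5.82%) had the reverse. Over all members the shares were 7.48% and 4.07%. The share of higher ones was thus near that of all members, and the share of lower ones was above it. The 7 transcripts called by the test were each listed at 0 in at least 1 selenite library and are not among them. Among those higher in high Se, the 5 with the smallest p differed by 6.50- to 15.4-fold in mean FPKM. The intergenic MSTRG.106728.1, a single exon of 947 bases on chromosome 6.1 (17212160 to 17213106), had 143.3, 196.1 and 100.6 FPKM in high Se libraries, against 15.8, 31.9 and 9.59 FPKM in low Se. Control libraries, at 41.1, 82.0 and 27.7 FPKM, lay below high Se and overlapped low Se. Its log2 difference was 3.05 ± 0.58 (SE), with a limma adjusted p of 0.161.

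MSTRG.61400.1, a spliced transcript of 202 bases that overlaps MS.gene85529 on chromosome 3.4 (11829605 to 11931421), had 517.6, 312.7 and 663.0 FPKM in high Se libraries, against 52.8, 71.8 and 105.3 FPKM in low Se. Control, at 56.95, 141.2 and 35.95 FPKM, lay below high Se and spanned the low Se range, and the limma adjusted p was 0.193. Another form of the locus, MSTRG.61400.2, overlapped between the doses, with 77.9, 67.3 and 110.8 FPKM against 81.0, 47.8 and 25.1 FPKM. MSTRG.9034.1, which shares a junction with MS.gene005130 on chromosome 1.1 (60060760 to 60083132), had 58.4, 34.5 and 170.8 FPKM in high Se libraries, against 4.33, 12.1 and 8.37 FPKM in low Se (limma adjusted p = 0.194). In control it was uniform, at 16.5, 16.4 and 17.2 FPKM, between the doses. The intergenic MSTRG.26062.1 on chromosome 1.4 had 37.9, 29.3 and 128.9 FPKM against 3.14, 8.17 and 1.42 FPKM (limma adjusted p = 0.175). The intergenic MSTRG.70186.1 on chromosome 4.1 had 12.2, 10.3 and 9.14 FPKM against 0.485, 0.48 and 1.44 FPKM, with control at 5.81, 9.19 and 6.85 FPKM (limma adjusted p = 0.194).

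**Figure D5:**
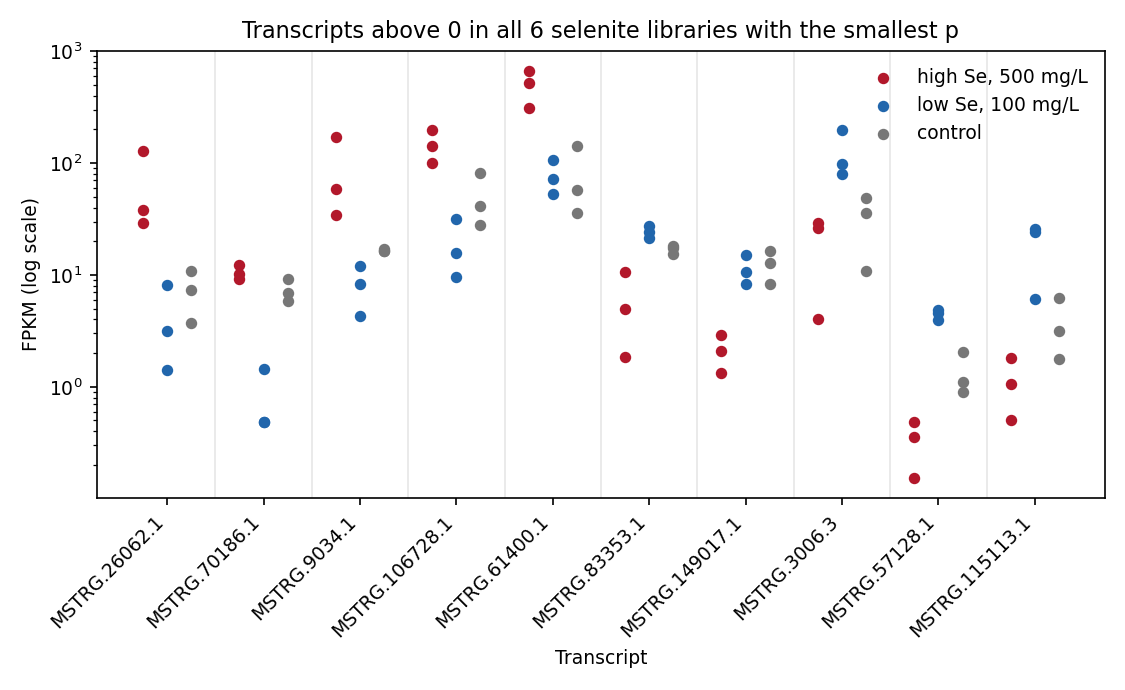
FPKM on a log axis in high Se, low Se and control libraries for the 5 higher and 5 lower transcripts with the smallest p among those above 0 in all 6 selenite libraries. Each point is 1 library. High Se and low Se do not overlap in any of the 10, which were chosen by p in this contrast. Control lies between the doses or overlaps one of them, and overlaps both for MSTRG.115113.1.

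Of the 5 lower ones, MSTRG.115113.1 and MSTRG.57128.1 were intronic. MSTRG.115113.1, in MS.gene34554 on chromosome 6.3 (53457742 to 53458357), had 1.79, 0.504 and 1.05 FPKM in high Se libraries, against 6.10, 25.8 and 24.1 FPKM in low Se (limma adjusted p = 0.274). MSTRG.57128.1, in MS.gene66170 on chromosome 3.3 (45705032 to 45705951), had 0.481, 0.154 and 0.359 FPKM against 3.94, 4.84 and 4.61 FPKM (limma adjusted p = 0.386). Low Se was uniform for this transcript, and control lay between at 0.907, 1.11 and 2.04 FPKM. MSTRG.83353.1, which shares a junction with MS.gene28441 on chromosome 4.4, had 4.95, 1.85 and 10.7 FPKM in high Se libraries, against 24.3, 27.1 and 21.2 FPKM in low Se (limma adjusted p = 0.386). The intergenic MSTRG.149017.1 on chromosome 8.3 had 2.11, 2.91 and 1.32 FPKM against 15.05, 10.7 and 8.22 FPKM (limma adjusted p = 0.386). Its control libraries, at 16.2, 12.7 and 8.29 FPKM, lay within or just above the low Se range.

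The remaining one, MSTRG.3006.3 on scaffold 41095 (15385 to 25856), belongs to a locus with 5 listed forms. Its values were 4.06, 29.4 and 26.4 FPKM in high Se libraries, against 198.8, 98.4 and 78.96 FPKM in low Se (limma adjusted p = 0.358). The other forms differed from it. MSTRG.3006.1 had 73.5, 46.5 and 59.5 FPKM in high Se libraries, against 43.8, 29.1 and 22.8 FPKM in low Se. MSTRG.3006.2 had 24.1, 26.4 and 17.7 FPKM against 10.7, 9.001 and 6.98 FPKM, and MSTRG.3006.4 had 54.4, 45.3 and 55.0 FPKM against 37.96, 18.3 and 16.7 FPKM. In these 3 forms every high Se library lay above every low Se library, the opposite of MSTRG.3006.3, while MSTRG.3006.5 overlapped, with 16.6, 15.55 and 4.596 FPKM against 19.7, 18.0 and 8.74 FPKM. Forms of 1 locus share reads, and how the authors' quantification divided them can move 1 form against another. The part of that division in the values was not tested.

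At 10 FPKM or more, the 2 transcripts lower in high Se with the smallest p after MSTRG.130637.1 were the intergenic MSTRG.45143.1 on chromosome 3.1 and MSTRG.87005.1 on chromosome 4.4. Both were listed at 0 in every high Se library. MSTRG.45143.1 had 7.07, 56.7 and 44.0 FPKM in low Se (limma adjusted p = 0.224) and MSTRG.87005.1 had 24.3, 44.6 and 13.3 FPKM (limma adjusted p = 0.274). Each was also listed at 0 in at least 1 control library. MSTRG.72199.1, a spliced intergenic transcript on chromosome 4.2 (5192245 to 5193359), was listed at 0 in high Se and had 5.17, 9.04 and 4.80 FPKM in low Se, with a limma adjusted p of 0.0912.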

How the data were processed

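Strand-marked (dUTP), rRNA-depleted leaf RNA was sequenced, per the labels' protocols. The tools listed by the submitters' processing notes are StringTie, HISAT2, edgeR and Bowtie2, without role or version. The genome build is not given in the sources used here, and coordinates are those of the deposited table. Per the file headers, the authors gave each transcript an FPKM value and a coverage signal in every library. Coverage is the mean depth per base and carries no scaling. The authors wrote 0.0001 for 0, which was set back to 0. Deposited CPC and CNCI scores of coding potential and other deposited columns (length, exons, class code) describe each transcript.

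The ratio of coverage to FPKM was taken as aligned gigabases, if FPKM follows StringTie's formula. The product of coverage and length fell on multiples of 141 bases more often than on neighbouring values, and reads were estimated in this unit. The median member then had 5.67 to 8.47 estimated reads per high Se library and 2.81 to 7.20 per low Se library, which limits single values. No counts are given, so no count test was run.

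The test used limma 3.58.1 (R 4.3.3) on log2(FPKM + 0.1), in 1 fit of all 9 libraries with a trended prior variance, adjusted over the 42823 members. The contrast was high Se minus low Se. Classes are those of the deposited class codes. Level bands began at 0.5, 1, 2, 5 and 10 FPKM. In matching, a class mean per library was set against the mean of all other members of each band, weighted by the share of the class's members that lie in the band. Class values, level bands and chromosomes are descriptions without a test. The fit was checked on simulated, normally distributed values. No simulated group was tied at 0, so the check does not cover the p-values of transcripts listed at 0 throughout a group.

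Transcripts were named by rule: up to 10 per direction with the largest difference among those passing, if the groups did not overlap and the higher one averaged 1 FPKM or more; the 2 per direction with the smallest p in each class; the 5 per direction among transcripts above 0 in all 6 libraries; the 3 per direction at 10 FPKM or more; and the 5 with the highest mean. This gave 36 transcripts. Members, lists and rules were chosen with earlier results of these data known. Alternatives covered pseudocount, filter, scaling, variance model, weights, samples, replicate block, level bands and each library left out. In fits without 1 library, the mean FPKM was taken over the selenite libraries left. Other steps used Python 3.11.15, NumPy 2.4.6, pandas 2.3.3 and matplotlib 3.10.9.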

Additional observations from a re-analysis of the deposited data

How the results depend on the processing

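Of the 7 calls, 5 remained in a fit of the 6 selenite libraries alone, which called 21, and 5 with a pseudocount of 1, which called 18. All 7 remained without the filter, which called 19. The count was 18 at an adjusted p below 0.1, 4 without the variance trend and 1 with library weights or a pseudocount of 0.01. With each library left out it ranged from 0 to 19. With the replicate block it was 2. Deviations from the group means of same-numbered libraries correlated at -0.0075, -0.0045 and -0.010. All pairs of a high Se and a low Se library lay between -0.010 and 0.018. Values this near 0, over members with many listed zeros, show no pairing by number but cannot exclude it. The mean difference over members, 0.28, was 0.099 with a pseudocount of 1, 0.51 with 0.01, 0.053 after quantile normalization, 0.093 among transcripts above 0 in all 6 libraries and 0.16 to 0.41 with 1 library left out. Matched for level, the intronic difference of -0.10 was -0.047 with a pseudocount of 1, -0.15 with 0.01, -0.065 without the filter, -0.20 above a mean of 2 FPKM and -0.11 to -0.067 with 1 library left out. The sense-overlapping difference of 0.14 was 0.24 with a pseudocount of 0.01 and 0.0011 among transcripts above 0 in all 6 libraries, where the antisense one, 0.29, was 0.063. With 1 library left out these 2 ranged from 0.084 to 0.20 and from 0.19 to 0.38, the intergenic one from -0.0026 to 0.063 and the junction-sharing one from -0.10 to 0.05. The mean log2 difference of transcripts at 0.5 to 1 FPKM, 0.25, was -0.0044 after quantile normalization, and in chromosome set 6 the matched difference was -0.021 among transcripts above 0 in all 6 libraries. The pseudocount sets the weight of listed zeros, and the cause of the other changes was not tested. Matching over all members on chromosomes, over the level bands from control, on level and exon number or in 10 equal bands was chosen in part after the data were seen, and moved no class difference by as much as 1 SD between libraries.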
